A study of Mus musculus with 12 samples.

Results

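The effect of Shield1 on which X-chromosome allele was read was compared on 2 late days of reprogramming, day 52 and day 56. The MidK1 course carried the Sendai virus vector SeVdp(fKOSMaB) and received 30 nM Shield1, and the LowK course carried the same vector with no Shield1. Both courses started from mouse embryonic fibroblasts (MEF), and 1 library stood for each course on each day, so 4 of the 12 libraries of the study entered the comparison and there were no replicates. Each library of poly(A) RNA was described by a table of positions on the X chromosome at which reads differed from the mouse reference genome. A site was a single-base variant with at least 20 reads in both libraries of a day, and the reference share of a gene was the percentage of reads, summed over its sites, without the variant base. Of 351 genes with such a site in the 7 tables of MEF1, LowK and MidK1, 244 genes (1837 sites) could be compared at day 52, 243 genes (1907 sites) at day 56 and 227 genes on both days. A gene was called different where a two-sided Fisher's exact test on its summed reads, with Benjamini-Hochberg adjustment over all genes of the day, gave an adjusted p under 0.05 and the shares differed by at least 20 percentage points. Strain, parent of origin of either X, feeder cells and whether the 2 courses were grown as separate cultures: none of these is given in the sources used here, and no clone or pool of cells is named.

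In female mammals 1 X chromosome of each cell is transcriptionally silent, and a few genes escape this silencing. The silent X is transcribed again when somatic cells are reprogrammed to pluripotency, and RNA reads that carry the base of the silent copy then appear beside those of the active copy. Shield1 is a small-molecule ligand that protects proteins fused to a destabilising domain from degradation, so the comparison asks whether its presence went with a different allele balance late in the course. In MEF1, the fibroblast library of the same set of tables, the median site carried the variant base in 96.2% of reads, so at such sites a higher reference share means more reads of the other allele.

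At day 52, MidK1 had a higher reference share than LowK at 21 genes (8.61% of the genes tested) and a lower one at 0. At day 56 there were again 21 genes higher in MidK1 (8.64%) and 0 lower. The lists shared 18 genes, which is 85.7% of each list and 7.93% of the genes tested on both days. They are Plp2, Gpkow, Praf2, Tfe3, Gripap1, Wdr13, Ftsj1, Dynlt3, Bcor, Uba1, Klhl13, Sept6, Zdhhc9, Utp14a, Bcorl1, Rbmx2, Enox2 and Gm21887. Their reference shares lay between 32.1% and 84.99% in MidK1 (median 44.6%) and between 0.820% and 30.9% in LowK (median 8.16%) at day 52. At day 56 they lay between 31.2% and 87.5% in MidK1 (median 50.4%) and between 2.17% and 36.9% in LowK (median 15.02%). MidK1 was above 40% at 15 of the 18 genes at day 52 and at 16 at day 56, whereas LowK was below 10% at 11 of them at day 52 and at 5 at day 56. The compared sites were not all the same on the 2 days, so these counts and medians do not measure change at fixed sites. Over all genes tested, the median share was 4.79% in MidK1 and 2.47% in LowK at day 52, and 8.47% in MidK1 and 4.28% in LowK at day 56. Each test compares the reads of 2 libraries, not the conditions, and its error covers counting only. In a bulk library, a share near 45% in every cell and a mixture of cells with high and low shares cannot be told apart.

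**Figure D1:**
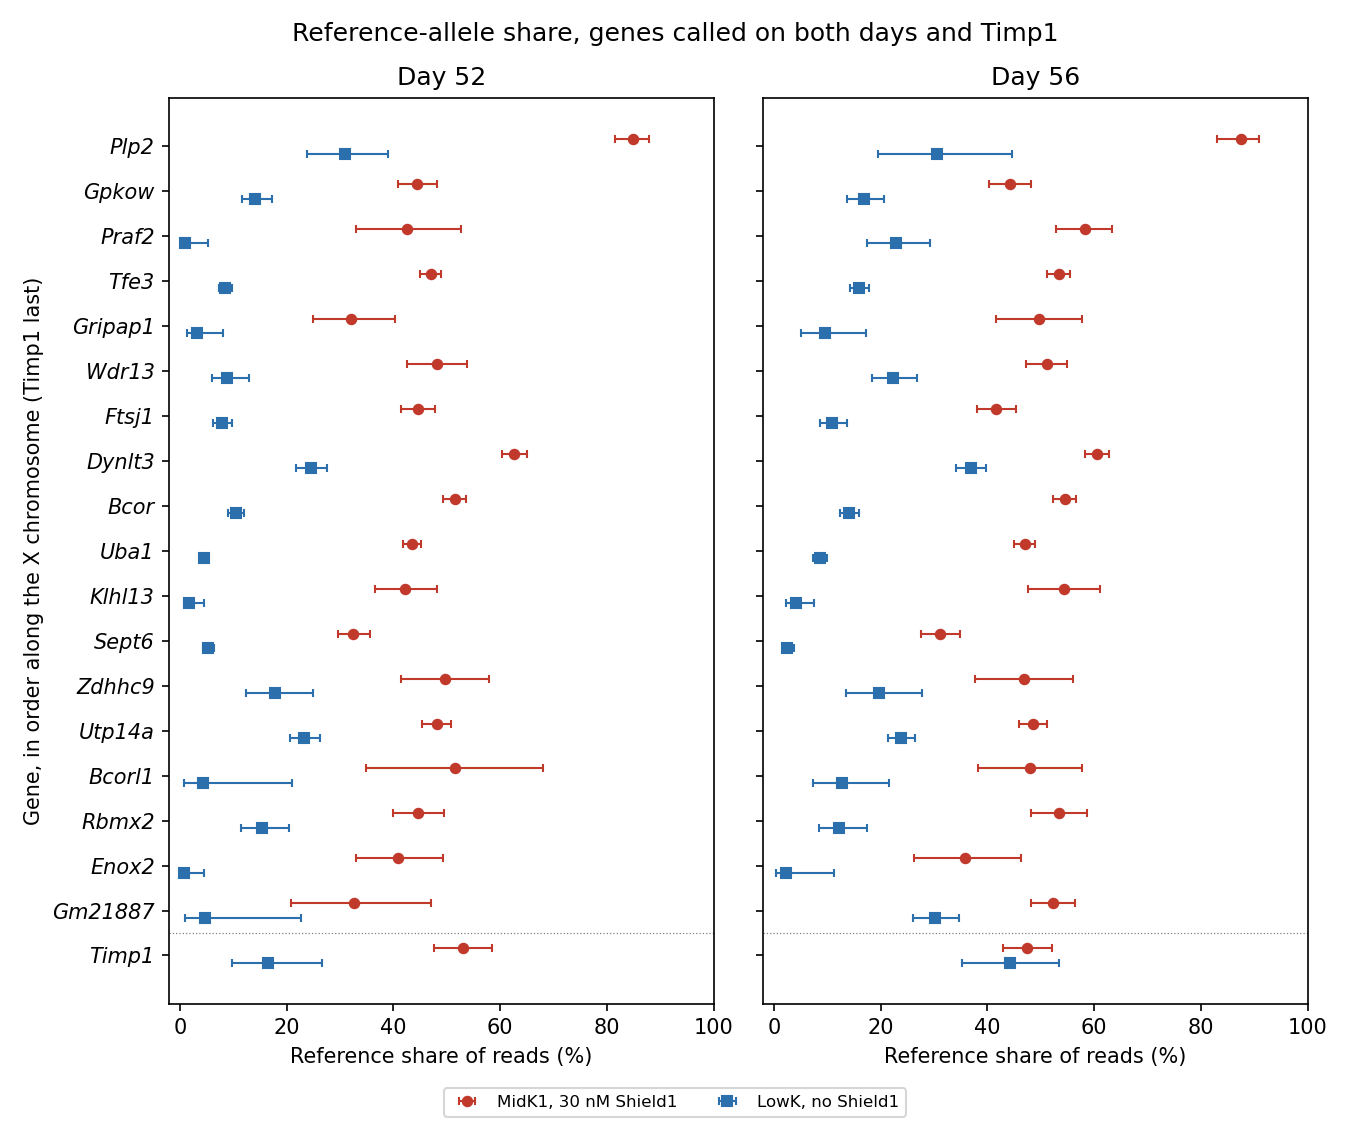
Reference share of reads (%, x axis) of the 18 genes called higher in MidK1 on both days and of Timp1 (rows), at day 52 (left panel) and day 56 (right panel). Circles are MidK1 with 30 nM Shield1, squares are LowK without it, and bars are 95% Wilson intervals. At every gene above the dotted line the circle lies right of the square on both days, while the symbols of Timp1 lie together at day 56, at 47.5% in MidK1 and 44.1% in LowK.

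The genes are told apart at single transcribed bases. The windows below show 1 coding site in each of 6 genes, written in the direction of the transcript, with the reference base of the variant position in capitals. They are shown because the share of reads that keep the capital base is the measured quantity in each gene.
Tfe3: agcacaacgttccaTgtatcgggaggacc
Bcor: ccagatgaggaagaGgatacctatagcga
Uba1: aacgatgaaagcggCgaggacgtcgaggt
Dynlt3: aataacatcaaccaAtggactgcaagcat
Sept6: aagaagaagctggaGgataagaagaaatg
Timp1: cggatcaggtcctcGtgggctctgaggac
The windows come from the GENCODE M21 transcripts of build mm10. They lie at chrX:7773626-7773654 (plus strand) in Tfe3, chrX:12038984-12039012 (minus strand) in Bcor, chrX:20682457-20682485 (plus strand) in Uba1, chrX:9657097-9657125 (minus strand) in Dynlt3, chrX:36922957-36922985 (minus strand) in Sept6 and chrX:20874529-20874557 (plus strand) in Timp1. Counted from 1 at the 5′ end of the window, the variants are T15C in Tfe3, G15C in Bcor, C15T in Uba1, A15G in Dynlt3, G15A in Sept6 and G15A in Timp1. At the Uba1 site, 46.0% of 543 reads in MidK1 and 8.08% of 334 reads in LowK kept the reference C at day 52. The same site kept it in 48.6% of 541 reads in MidK1 and 11.3% of 328 reads in LowK at day 56. The Sept6 site had lower shares in both libraries, at 32.6% in MidK1 and 1.59% in LowK at day 52, and 32.3% in MidK1 and 1.94% in LowK at day 56.

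Genes for transcription factors, corepressors and RNA-binding or RNA-modifying proteins made up a first group of 7 among the 18. Tfe3 encodes a basic helix-loop-helix transcription factor whose place in the nucleus or cytoplasm is linked to the exit from pluripotency in mouse embryonic stem cells. Its share was 47.0% in MidK1 and 8.47% in LowK at day 52, and 53.4% in MidK1 and 15.96% in LowK at day 56. The difference was 38.5 points at day 52 (95% Newcombe interval 36.2 to 40.8, 25 sites) and 37.4 points at day 56 (34.6 to 40.1, 22 sites), with adjusted p = 9.56e-188 and 5.87e-126 in Fisher's exact test. Among the compared sites, the lowest MidK1 site of Tfe3 lay above its highest LowK site on both days. The values were 33.3% in MidK1 against 20% in LowK at day 52, and 38.9% in MidK1 against 23.4% in LowK at day 56. LowK at day 52 also had Tfe3 sites that could not be compared with MidK1. Over all 28 of its Tfe3 sites the LowK share was 14.9% of 2229 reads.

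Bcor encodes a corepressor that joins BCL6 and a variant Polycomb complex, and Bcorl1 encodes its paralog. Bcor had 51.5% in MidK1 and 10.4% in LowK at day 52, and 54.5% in MidK1 and 14.1% in LowK at day 56, so MidK1 was the higher library on both days by 41.1 and 40.4 points. Its share was also alike across kinds of sequence at day 56: 17 sites in introns gave 55.6% in MidK1 and 13.1% in LowK, 13 coding sites gave 52.4% in MidK1 and 15.1% in LowK, and 4 sites in untranslated regions gave 56.8% in MidK1 and 13.3% in LowK. Bcorl1 rested on little coverage. At day 52 it had 1 site, with 51.6% of 31 reads in MidK1 and 4.35% of 23 reads in LowK, and at day 56 it had 4 sites, with 47.9% in MidK1 and 12.8% in LowK. Its interval at day 52 ran from 23.6 to 64.1 points.

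Rbmx2, Gpkow, Ftsj1 and Utp14a encode proteins of RNA metabolism: Rbmx2 and Gpkow are tied to the spliceosome, Ftsj1 is a tRNA methyltransferase and Utp14a works in ribosome biogenesis. Rbmx2 had 44.6% in MidK1 and 15.4% in LowK at day 52, and 53.4% in MidK1 and 12.3% in LowK at day 56. Gpkow had 44.4% in MidK1 and 14.1% in LowK at day 52, and 44.2% in MidK1 and 16.8% in LowK at day 56. Ftsj1 had 44.5% in MidK1 and 7.85% in LowK at day 52, and 41.7% in MidK1 and 10.9% in LowK at day 56. In these 3 genes the MidK1 share stayed between 41.7% and 53.4% and the LowK share between 7.85% and 16.8%. Utp14a is known to escape silencing in some mouse cells, and its LowK share was the highest of the group. It had 48.1% in MidK1 and 23.3% in LowK at day 52, and 48.6% in MidK1 and 23.8% in LowK at day 56, and in MEF1 it was already at 31.3%.

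A second group held genes for enzymes and ubiquitin factors. Uba1 encodes the main ubiquitin-activating enzyme and had the most reads of the 18 genes at both days, 3441 in MidK1 and 3125 in LowK at day 52 and 2358 in MidK1 and 1697 in LowK at day 56. Its share was 43.5% in MidK1 and 4.51% in LowK at day 52, and 47.0% in MidK1 and 8.54% in LowK at day 56. All 19 sites at day 52 and all 15 at day 56 were higher in MidK1, and no MidK1 site fell below 26.1% while no LowK site exceeded 11.8%. Klhl13 encodes an adaptor of a cullin ubiquitin ligase. Its share was 42.2% in MidK1 and 1.76% in LowK at day 52, and 54.4% in MidK1 and 4.17% in LowK at day 56, and its difference at day 56 (50.2 points, interval 42.6 to 57.1, adjusted p = 7.44e-34 in Fisher's exact test) was exceeded only by that of Plp2. Zdhhc9, a protein palmitoyltransferase gene, had 49.6% in MidK1 and 17.7% in LowK at day 52, and 46.8% in MidK1 and 19.7% in LowK at day 56. Enox2, which encodes a cell-surface oxidase, had the lowest LowK shares of the 18: 40.9% in MidK1 and 0.820% in LowK at day 52, and 35.7% in MidK1 and 2.17% in LowK at day 56.

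The third group held genes of membranes, vesicle traffic and the cytoskeleton. Plp2 encodes a small membrane protein that sits partly in the endoplasmic reticulum. It was the most one-sided of the 18 genes, with 84.99% in MidK1 and 30.9% in LowK at day 52 (4 sites) and 87.5% in MidK1 and 30.6% in LowK at day 56 (1 site). A site is not listed once under 10% of its reads carry the variant base, so a still higher reference share could not be seen at a site. Praf2, a gene of the PRA1 family of vesicle membrane proteins, had 42.6% in MidK1 and 0.952% in LowK at day 52 (2 sites), and 58.2% in MidK1 and 22.8% in LowK at day 56 (6 sites). At the 2 Praf2 sites listed in all 4 libraries, the day 56 shares were 43.0% in MidK1 and 13.4% in LowK. Gripap1, a gene for an endosome protein that binds a glutamate-receptor scaffold, had 32.1% in MidK1 and 3.25% in LowK at day 52, and 49.7% in MidK1 and 9.57% in LowK at day 56. Dynlt3 encodes a light chain of the dynein motor, and its share was 62.7% in MidK1 and 24.6% in LowK at day 52 and 60.5% in MidK1 and 36.9% in LowK at day 56. It had the highest LowK share of the 18 genes at day 56. Sept6, which encodes a septin filament subunit, had the lowest MidK1 share of the 18 at day 56: 32.5% in MidK1 and 5.20% in LowK at day 52, and 31.2% in MidK1 and 2.49% in LowK at day 56.

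The last 2 genes fell outside those groups. Wdr13, a WD-repeat protein gene, had 48.2% in MidK1 and 8.84% in LowK at day 52, and 51.1% in MidK1 and 22.4% in LowK at day 56. At the 6 Wdr13 sites listed in all 4 libraries, the LowK share was 10.9% at day 52 and 19.7% at day 56. Gm21887 lies at the distal end of the chromosome in a multicopy region, so its reads may come from several copies and its value is uncertain. It had 1 site at day 52, with 32.6% in MidK1 and 4.76% in LowK, and 11 sites at day 56, with 52.3% in MidK1 and 30.2% in LowK. At the 1 site compared on both days, the day 56 values were 52.8% of 72 reads in MidK1 and 0 of 54 reads in LowK. At day 56 Gm21887 also had 3 sites above 70% in both libraries. Its adjusted p of 0.0463 at day 52 in Fisher's exact test was the weakest of the 18, and its call was lost under several alternative settings.

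The site values behind the sums are a description, since the same sites made the calls. Over the 18 genes, 207 of 208 compared sites were higher in MidK1 at day 52 and 203 of 207 at day 56, where over all genes 64.4% and 69.3% of sites were, and every site was higher in 17 genes at day 52 and in 14 at day 56. In genes with at least 3 sites, the lowest MidK1 site exceeded the highest LowK site in 12 of 15 at day 52 and 8 of 16 at day 56. The 255 different sites of these genes comprised 129 in coding sequence, 109 in untranslated regions and 17 in introns. Bcorl1 and Gm21887 rested on 1 site at day 52 and Plp2 on 1 at day 56, and in Gm21887 only 3 of 11 sites differed by 20 points at day 56. Sites of 1 gene can lie on the same read and are not independent. A single Sept6 site stood apart at day 52, with 85.1% in MidK1 and 84.4% in LowK where the median site of LowK was at 4.65%.

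**Figure D2:**
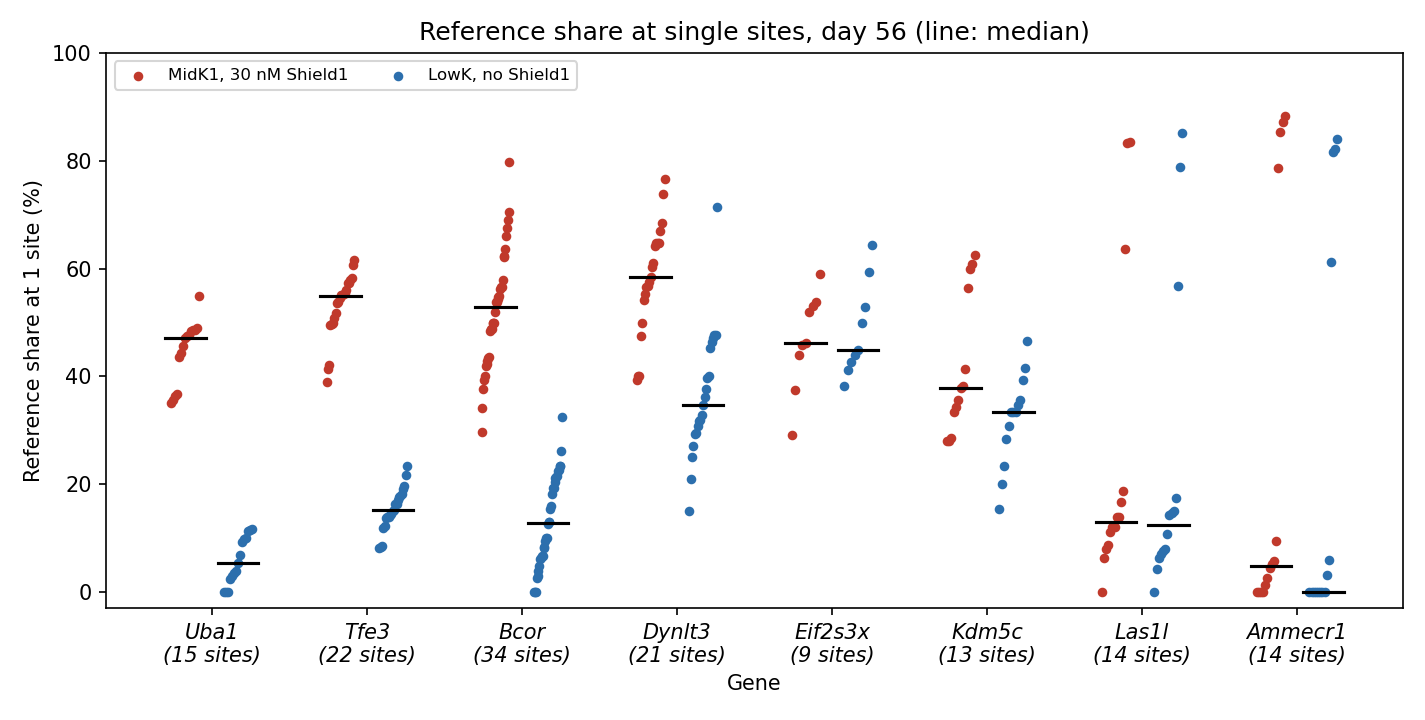
Reference share at single sites (%, y axis) at day 56 in 4 genes called on both days (Uba1, Tfe3, Bcor, Dynlt3) and 4 level genes (Eif2s3x, Kdm5c, Las1l, Ammecr1). Each point is 1 site, MidK1 on the left and LowK on the right of each gene, and black lines are medians. Uba1 and Tfe3 sites form 2 bands by library, Bcor sites nearly do (lowest in MidK1 29.6%, highest in LowK 32.5%), Eif2s3x and Kdm5c sites overlap, and Las1l and Ammecr1 hold mostly low sites with a few near 80%.

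Coverage was higher in MidK1 at most of the 18 genes. The reference reads that made the calls are part of this coverage, so it is not independent of the calls. After scaling to the 1524 sites listed in all 4 libraries, the log2 ratio of coverage of MidK1 to LowK had a median of 0.39 over the 18 genes at day 52, with 16 above 0, against -0.01 over all genes, of which 49.2% were above 0. At day 56 the median was 0.55, with 15 of 18 above 0, against -0.03 over all genes, of which 46.1% were above 0. Reads of the variant base alone were not higher in MidK1 in the middle of the list: their log2 ratio had a median of -0.38 over the 18 genes and -0.12 over all genes at day 52, and -0.12 in both at day 56. In Tfe3 at day 52, MidK1 had 1247 scaled reference reads against 171 in LowK, and 1405 scaled variant reads against 1849 in LowK. Plp2 had 443 scaled reference reads in MidK1 against 43 in LowK at day 52, and 78.2 scaled variant reads in MidK1 against 96 in LowK. Sept6 had lower coverage in MidK1, with a log2 ratio of -0.66 at day 52 and -0.45 at day 56. These ratios compare 1 library with another, carry no error between cultures and were not tested.

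The 18 genes were not spread evenly along the chromosome, as the plot of differences in gene order shows. Of genes in the first 50 Mb, 19 of 75 (25.3%) were called at day 52 and 20 of 73 (27.4%) at day 56. Beyond 50 Mb, 2 of 169 genes (1.18%) were called at day 52 and 1 of 170 (0.59%) at day 56. The 50 Mb bound was chosen after the values were seen, so these shares are a description. All of the 18 genes except Gm21887 lay in the first 50 Mb. Between 50 and 150 Mb, 0 of 130 genes were called on either day. In that stretch 11 genes in MidK1 and 8 in LowK had a summed share of at least 20% at day 52, and 13 in MidK1 and 10 in LowK at day 56. Some of these, such as Las1l and Ammecr1, mix opposite sites, as described below.

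**Figure D3:**
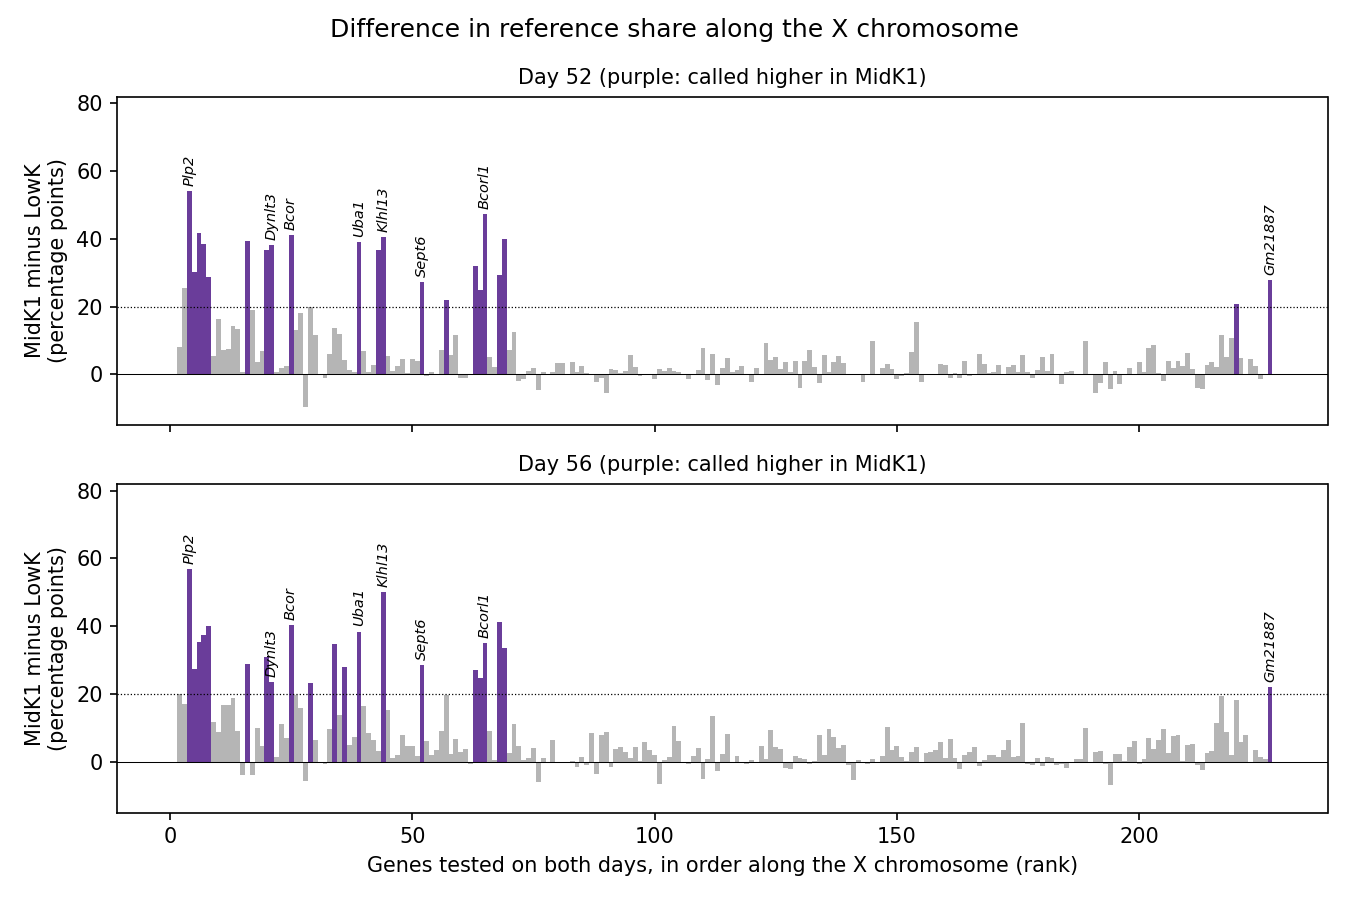
Difference in reference share, MidK1 minus LowK (percentage points, y axis), of the 227 genes tested on both days, in their order along the X chromosome (x axis, rank), at day 52 (top) and day 56 (bottom). Purple bars are genes called higher in MidK1, grey bars are the other genes and the dotted line marks 20 points. Purple bars stand mainly among the first ranks, with Gm21887 at the last rank.

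Neighbouring genes could differ widely. Both stretches given here begin and end at called genes, which raises their counts, so the counts are a description. Over all genes tested on both days, 7.93% were called on both. From Plp2 to Ftsj1, 17 genes were tested on both days and 7 were called on both: Plp2, Gpkow, Praf2, Tfe3, Gripap1, Wdr13 and Ftsj1. The other 10 were Otud5, Pim2, Pqbp1, Timm17b, Pcsk1n, Hdac6, Suv39h1, Rbm3, Ebp and Porcn. Suv39h1, a histone methyltransferase gene beside Wdr13 among the genes tested, had 1.71% in MidK1 and 1.09% in LowK at day 52, and 3.79% in MidK1 and 7.74% in LowK at day 56, while Wdr13 was near 50% in MidK1 on both days. Timm17b, a gene of mitochondrial protein import, had 12.6% in MidK1 and 5.17% in LowK at day 52, and 32.6% in MidK1 and 15.7% in LowK at day 56. From Zdhhc9 to Enox2, 5 of 7 genes were called on both days (Zdhhc9, Utp14a, Bcorl1, Rbmx2 and Enox2). The exceptions lay between called genes: Aifm1, which encodes a mitochondrial apoptosis factor, had 7.36% in MidK1 and 2.30% in LowK at day 52 and 13.7% in MidK1 and 4.60% in LowK at day 56, and Zfp280c had 5.08% in MidK1 and 2.80% in LowK at day 52 and 2.71% in MidK1 and 2.15% in LowK at day 56.

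Gene lists by role gave small counts, to be read against the 8.61% and 8.64% of all genes called. Chromatin and transcription genes had 4 of 27 higher in MidK1 at day 52 and 4 of 28 at day 56 (Bcor, Bcorl1, Rbmx2 and Tfe3), with median differences of 1.85 and 4.16 points. Ubiquitin and proteasome genes had 3 of 16 at day 52 (Klhl13, Uba1 and Wdr13, the last a loose member of that list) and 4 of 16 at day 56, when Usp9x was added, with medians of 4.92 and 5.84 points. Cytoskeleton and membrane traffic genes had 4 of 16 at day 52 (Dynlt3, Lamp2, Praf2 and Sept6) and 3 of 16 at day 56, with medians of 4.33 and 6.38 points. Fibroblast-expressed genes had 3 of 21 at day 52 (Lamp2, Plp2 and Timp1) and 1 of 21 at day 56 (Plp2). Among ubiquitous housekeeping genes 1 of 29 was called at day 52 and 1 of 28 at day 56, Uba1 both times, and among pluripotency and germline genes 1 of 7 and 1 of 8, Tfe3 both times. Genes known to escape silencing had 1 of 10 at day 52 and 1 of 11 at day 56, Utp14a. The Bex, Tceal and Armcx genes had 0 of 14 called at day 52 and 0 of 13 at day 56, and genes of the X-inactivation centre 0 of 2 and 0 of 3. The median difference over all genes was 1.92 points at day 52 and 2.90 points at day 56.

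Smaller differences ran the same way over many genes. With no limit on size, an adjusted p under 0.05 in Fisher's exact test was reached with a higher share in MidK1 at 73 genes at day 52 (29.9%) and 90 genes at day 56 (37%). Only Med14, a Mediator subunit gene, passed with a lower share in MidK1, on both days (0.41% of genes at day 52 and 0.412% at day 56). It had 4.46% in MidK1 and 14.1% in LowK at day 52 (difference -9.65 points, interval -15.1 to -3.77) and 7.38% in MidK1 and 13.2% in LowK at day 56 (-5.78 points, -9.19 to -2.09). Of the 73 genes of day 52, 48 were higher in MidK1 at day 56 by the same measure and 0 were lower. Across the 227 genes, the differences of the 2 days had a Pearson r of 0.842 and a Spearman rho of 0.556, as a description over genes that share libraries and are not independent.

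Several of the best-covered genes stayed almost wholly on the variant allele in both courses. Of the 8 genes with the most reads that were called on neither day, Pdha1, a pyruvate dehydrogenase subunit gene, had 2.66% in MidK1 and 0.987% in LowK at day 52 and 6.69% in MidK1 and 1.54% in LowK at day 56. Rps4x, a ribosomal protein gene, had 5.24% in MidK1 and 1.91% in LowK at day 52 and 9.03% in MidK1 and 3.95% in LowK at day 56. Both passed the adjusted p on both days and missed the size limit by far. Rlim, a ubiquitin ligase gene that acts in X inactivation, had 1.80% in MidK1 and 2.01% in LowK at day 52 and 5.11% in MidK1 and 4.62% in LowK at day 56, and the interval of its difference at day 56 ran from -0.57 to 1.53 points. Its 61 sites at day 56 held 2 above 70% in both libraries. At the 54 Rlim sites listed in all 4 libraries, the day 56 shares were 2.66% in MidK1 and 1.79% in LowK. Sh3bgrl, Atrx and the processed pseudogene Gm14681 were below 10% in every library, with differences between -0.42 and 1.96 points. Hmgn5 and Ddx3x completed the 8. Ddx3x, an RNA helicase gene that escapes silencing, had 55.4% in MidK1 and 43.8% in LowK at day 52 and 54.1% in MidK1 and 47.8% in LowK at day 56.

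**Figure D4:**
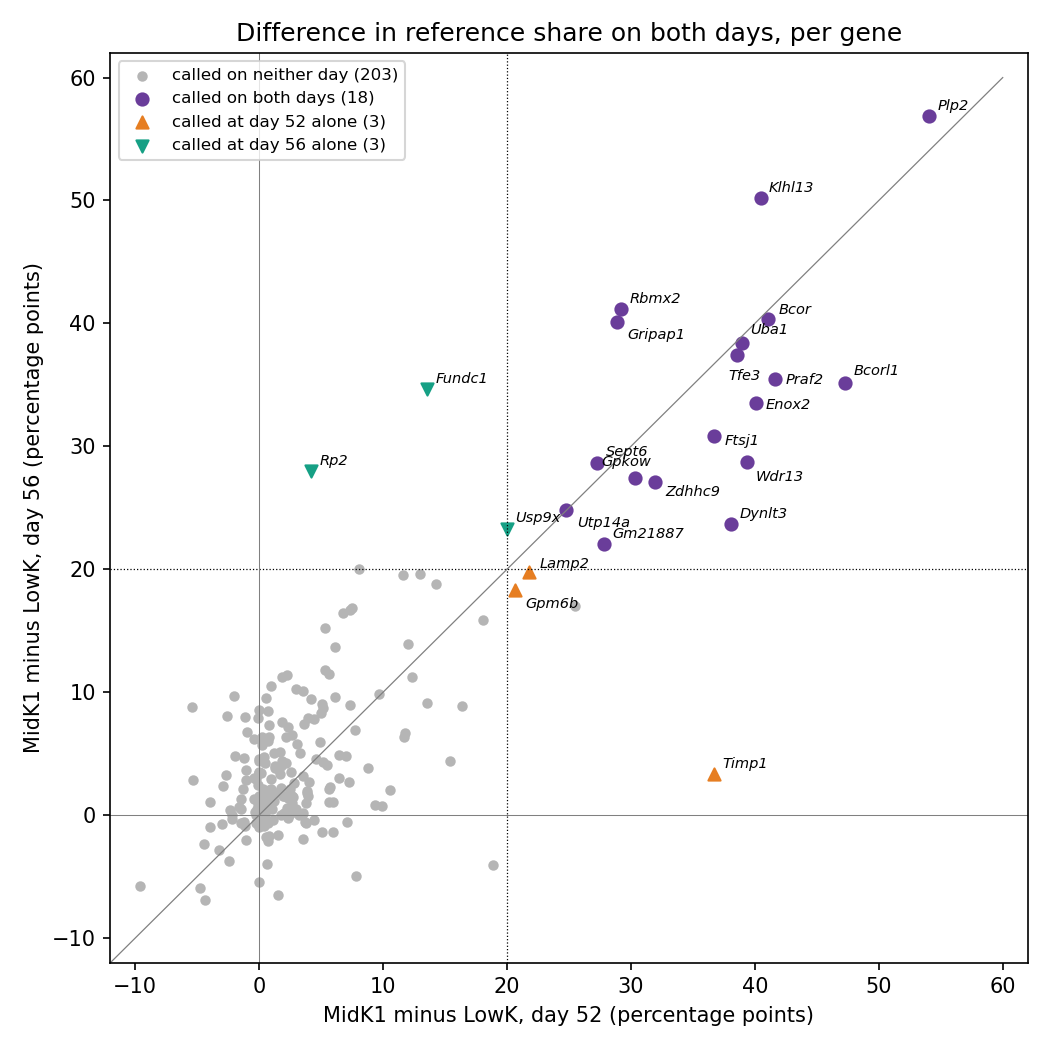
Difference in reference share, MidK1 minus LowK (percentage points), at day 52 (x axis) and day 56 (y axis), 1 symbol for each of 227 genes. Symbols mark genes called on both days, on 1 day alone or on neither, dotted lines mark 20 points and the diagonal marks equal differences. The 18 genes called on both days lie in the upper right, and Timp1 lies far below the diagonal at 3.32 points at day 56 and 36.7 points at day 52.

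By the rule used, Timp1 was the only gene at which LowK had caught up with MidK1. A size limit of 10 points in place of 20 gave 3 genes (Timp1, Hdac6 and Ddx3x), and at least 50 reads per site gave 0. No Timp1 site had 50 reads in LowK at day 52, so Timp1 could not be found with that minimum. The rule meant a gene called at day 52 and not at day 56, with a share of at least 20% in MidK1 on both days, a difference under 10 points at day 56 and a LowK share that was higher at day 56 than at day 52 at an adjusted p under 0.05. Timp1 encodes a secreted inhibitor of matrix metalloproteinases and is strongly expressed in fibroblasts. Its share was 53.1% of 320 reads in MidK1 and 16.4% of 73 reads in LowK at day 52, and 47.5% of 453 reads in MidK1 and 44.1% of 111 reads in LowK at day 56. The difference was 3.32 points at day 56 (interval -7.02 to 13.3, adjusted p = 0.818 in Fisher's exact test) and 36.7 points at day 52 (25.2 to 45.4, adjusted p = 4.38e-08). Within LowK the share was higher at day 56 than at day 52 by 27.7 points (14.2 to 39.2, adjusted p = 0.00126 in Fisher's exact test), at 3 of 3 sites. Within MidK1 it differed by -4.55 points between the days (-10.8 to 1.76, adjusted p = 0.377 in the same exact test).

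The Timp1 result rested on 3 sites near the 3′ end of the gene, so close together that 1 read can cover several. At the coding site shown above, LowK had 37.1% of 35 reads at day 56 against 18.2% of 22 reads at day 52, and MidK1 had 46.5% at day 56 against 52.9% at day 52. At the best-covered site, in the untranslated region, LowK had 45.5% of 44 reads at day 56 against 17.9% of 28 reads at day 52, and MidK1 had 49.4% at day 56 against 49.6% at day 52. With that site alone, or with sites at least 300 bases apart, the rule found 0 genes, as the LowK change no longer reached an adjusted p under 0.05 on so few reads. Timp1 coverage, relative to MEF1, was 48.3% in MidK1 and 9.39% in LowK at day 52, and 59.5% in MidK1 and 15.3% in LowK at day 56. The fibroblast list as a whole had a median coverage relative to MEF1 of 39.8% in MidK1 (19 genes, range 1.19% to 733%) and 40.4% in LowK (20 genes, 8.93% to 214%) at day 52, and 63.2% in MidK1 (18 genes, 2.51% to 825%) and 50.5% in LowK (21 genes, 6.76% to 254%) at day 56. The part of remaining fibroblasts in the Timp1 result was not tested. In MEF1 the Timp1 share was 2.93% of 614 reads.

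Apart from Timp1, no gene in LowK was called higher at day 56 than at day 52: 1 of 253 genes (0.395%) passed the test and the 20-point limit. In MidK1 1 of 236 (0.424%) passed, Timm17b, with 33.4% at day 56 against 13.02% at day 52. With no limit on size, the share was higher at day 56 at 41 genes in LowK (16.2%) and at 61 genes in MidK1 (25.8%), and lower at 0 in either. The median difference between the days was 1.11 points in LowK and 2.37 points in MidK1. Of the 18 genes, 17 could be compared between the days within each course. LowK rose at 5 of them (Uba1, Bcor, Tfe3, Dynlt3 and Praf2), MidK1 rose at 4 (Tfe3, Rbmx2, Klhl13 and Gm21887), and none fell in either.

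The gap was smaller at day 56 than at day 52 at a number of genes, called or not, and larger at others. Dynlt3, Pbdc1, Hdac6 and Las1l are described here as examples. Praf2, also called on both days, had a smaller gap at day 56 and passed the test of a change, as given in the closing sections. Dynlt3 remained called on both days, with a difference of 23.7 points at day 56 (20.1 to 27.2) against 38.1 points at day 52 (34.2 to 41.8). LowK gained 12.3 points there between the days (8.23 to 16.3, adjusted p = 2.01e-07 in Fisher's exact test), while MidK1 differed by -2.13 points (-5.41 to 1.17). Its change between the days passed Zelen's exact test (adjusted p = 1.11e-05). Pbdc1, Hdac6 and Las1l did not pass it (adjusted p = 0.123, 0.222 and 0.719 in the same exact test). Pbdc1, a gene that escapes silencing in mouse cells, differed by 0.776 points at day 56 (-4.47 to 6.02) and 9.94 points at day 52 (5.21 to 14.6). Its LowK share was 40.9% at day 56 against 30.9% at day 52, and its MidK1 share was 41.7% at day 56 against 40.8% at day 52. Hdac6, a cytoplasmic deacetylase gene, differed by 9.14 points at day 56 and 13.5 points at day 52, with a LowK gain of 11.0 points at the sites both LowK libraries share. Las1l, a ribosome biogenesis gene, differed in its summed share by 0.820 points at day 56 and 9.32 points at day 52. Its sites do not form 1 group, as described below. At day 52, 3 of its 13 sites were higher in MidK1 and 8 were lower, with a median site difference of -1.52 points. Its place among the genes higher in MidK1 at day 52 with no limit on size thus rests on the sum.

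**Figure D5:**
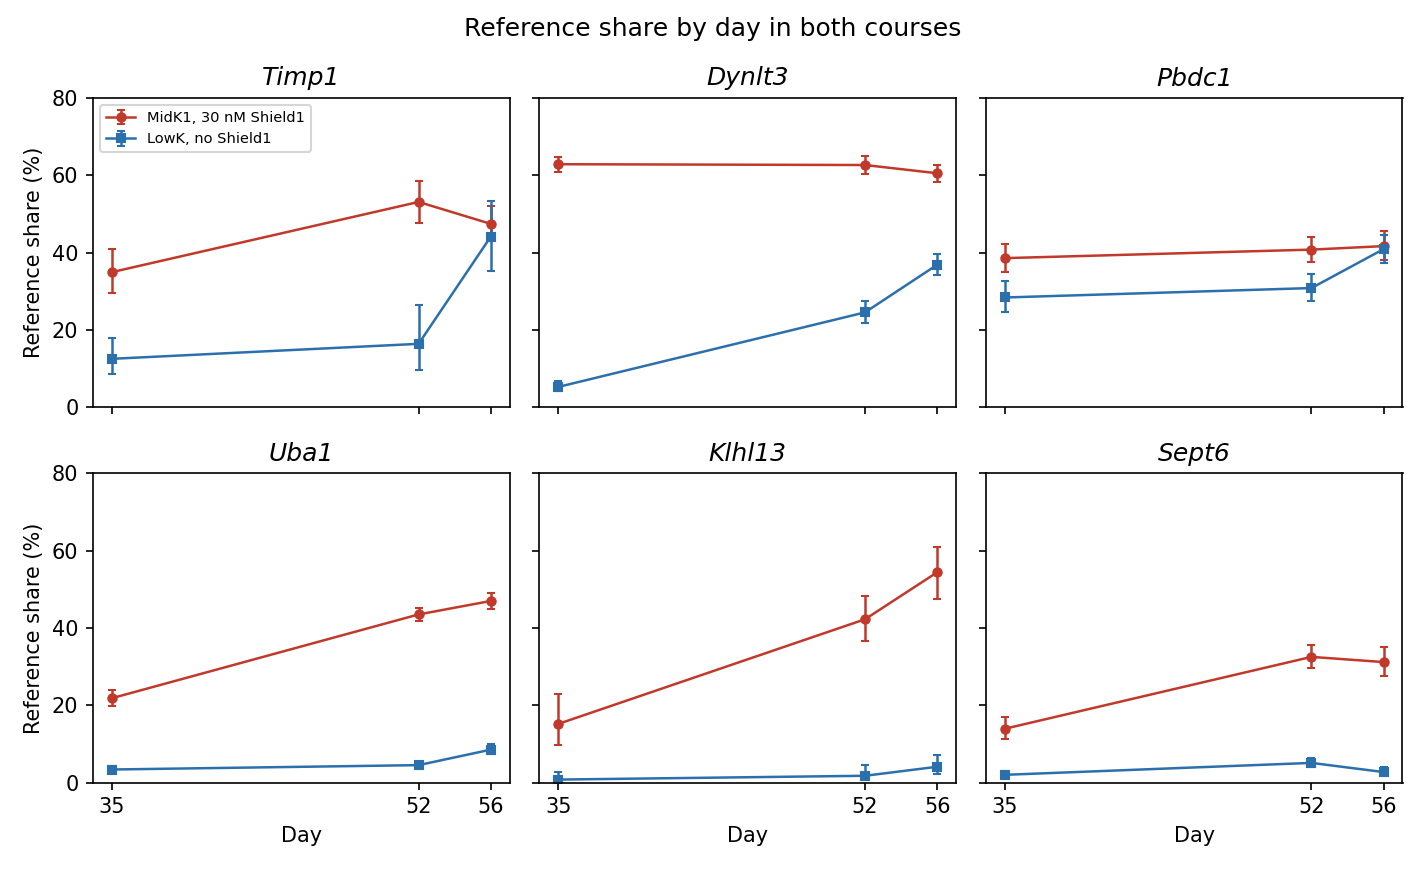
Reference share (%, y axis) at days 35, 52 and 56 (x axis) in MidK1 (circles) and LowK (squares) for 6 genes, with 95% Wilson intervals. Each library is shown at those of the sites compared at day 52 or day 56 that it listed. The LowK line of Timp1 and Pbdc1 meets that of MidK1 at day 56 and that of Dynlt3 comes closer, whereas the LowK line of Uba1, Klhl13 and Sept6 stays below 10% on all 3 days.

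There were 3 genes called at day 52 alone and 3 at day 56 alone, but a call on 1 day does not show that the days differ. The odds ratio of MidK1 to LowK differed between the days at 12 of 222 genes (5.41%) in Zelen's exact test, Benjamini-Hochberg adjusted over those genes, and Timp1 was the only gene called on 1 day among them. With 1 site per gene, or with sites at least 300 bases apart, 0 genes passed that test, and at some of the 12, such as Uba1, the difference in points hardly moved. Besides Timp1, Lamp2 and Gpm6b were called at day 52 alone. Lamp2, a lysosomal membrane protein gene, had 45.5% in MidK1 and 23.7% in LowK at day 52, and 43.7% in MidK1 and 23.9% in LowK at day 56, where its 19.8 points lay just under the size limit. Gpm6b, a membrane proteolipid gene, had 46.2% in MidK1 and 25.6% in LowK at day 52 (9 sites), and 32.8% in MidK1 and 14.5% in LowK at day 56 (3 sites). Its highest LowK site at day 52 was at 87.2%, against a median site of 16.7%. At its 1 site listed in all 4 libraries, LowK had 13.6% of 22 reads at day 52 and 12.5% of 32 reads at day 56. At day 56 alone, Usp9x, a deubiquitinase gene, had 32.3% in MidK1 and 9.01% in LowK, and at day 52 its 27.0% in MidK1 and 7.03% in LowK missed the limit at 19.99 points. Fundc1, a mitophagy receptor gene, had 63.4% in MidK1 and 28.7% in LowK at day 56, and 47.2% in MidK1 and 33.6% in LowK at day 52. Rp2, which encodes a GTPase-activating protein, had 1 site, with 28% of 25 reads in MidK1 and 0 of 27 reads in LowK at day 56, which allows a LowK share of up to 12.5% by the Wilson interval. Just inside the size limit lay Gpm6b (20.6 points), Lamp2 (21.8) and Utp14a (24.8) at day 52 and Gm21887 (22.1), Usp9x (23.3) and Dynlt3 (23.7) at day 56. Just outside it lay Usp9x (19.99), Rbm3 (18.8) and 1810030O07Rik (18.1) at day 52 and Lamp2 (19.8), Atp6ap2 (19.6) and Zrsr2 (19.5) at day 56.

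Genes read from both alleles to a like degree in both courses were few. The share was at least 20% in both libraries and differed by less than 10 points on both days at 10 genes: Alg13, Ammecr1, Eif2s3x, Gm7331, Hmgn5, Kdm5c, Las1l, Pbdc1, Phf8 and Porcn. Porcn had under 100 reads in 1 library. Eif2s3x, a translation initiation factor gene that escapes silencing, had 42.3% in MidK1 and 44.6% in LowK at day 52 (difference -2.36 points, -8.52 to 3.88), and 46.8% in MidK1 and 46.4% in LowK at day 56 (0.398 points, -5.12 to 5.92). Kdm5c, a histone demethylase gene that also escapes, had 37.8% in MidK1 and 37.6% in LowK at day 52 (0.180 points, -3.96 to 4.35), and 39.2% in MidK1 and 33.1% in LowK at day 56 (6.11 points, 0.485 to 11.7). Their intervals leave room for differences of several points, and escape genes as a list were not level throughout, as Ddx3x and Utp14a show. Alg13, a glycosylation gene, had 35.9% in MidK1 and 26.3% in LowK at day 52, and 36.1% in MidK1 and 26.2% in LowK at day 56. It differed at an adjusted p under 0.05 in Fisher's exact test on both days, by 9.69 and 9.88 points.

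A summed share can hide opposite sites. At all 8 sites of Eif2s3x at day 52 and all 9 at day 56 the share lay between 20% and 80% in both libraries, as it did at 15 of 16 and 11 of 13 sites of Kdm5c. Las1l had 1 such site of 13 at day 52, when 9 sites were below 10% and 3 were above 70% in both libraries. Ammecr1 had 1 such site of 8 at day 52 and 0 of 14 at day 56, when 10 sites were below 10% and 3 above 70%. Hmgn5, with 27.7% in MidK1 and 28.9% in LowK at day 52 and 36.2% in MidK1 and 31.6% in LowK at day 56, had 4 sites below 10% and 3 above 70% at day 52. Phf8, with 36.9% in MidK1 and 41.3% in LowK at day 52 and 31.6% in MidK1 and 38.5% in LowK at day 56, had 2 of 5 sites below 10% in both libraries on each day. Between 20% and 80% in both libraries lay 5 of 11 sites of Hmgn5 at day 52 and 5 of 12 at day 56. For Phf8 it was 3 of 5 sites on each day. The summed shares of Las1l, Ammecr1, Hmgn5 and Phf8 near 30 to 45% thus do not measure reading of both alleles at each site. The orientation of the alleles at the sites below 10% or above 70% is not known here. Gm7331 is a processed pseudogene whose reads may come from another locus. It had 49.2% in MidK1 and 53.6% in LowK at day 52, and 59.0% in MidK1 and 61.4% in LowK at day 56.

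Earlier values are given for some of the 18 genes as background. In MEF1, 11 of them had a listed site among those compared at day 52 or day 56. Of these 11 genes, 8 were below 10%, with a median of 5.26% and a highest value of 31.3% for Utp14a. The day 35 shares are for each library at those of the same sites that it listed. At day 35, Bcor was at 57.4% in MidK1 and 2.77% in LowK, Dynlt3 at 62.9% in MidK1 and 5.30% in LowK, and Tfe3 at 43.7% in MidK1 and 3.88% in LowK. These 3 genes were within 10 points of their later MidK1 shares, with no test of that difference. At several others the day 35 share in MidK1 was lower than on the later days, Rbmx2, Enox2, Gripap1 and Praf2 among them. Of these others, Uba1 was at 21.8% in MidK1 and 3.38% in LowK, Klhl13 at 15.2% in MidK1 and 0.775% in LowK, and Sept6 at 13.9% in MidK1 and 2.01% in LowK. For Uba1 the MidK1 share then was 43.5% at day 52 and 47.0% at day 56, and for Klhl13 it was 42.2% at day 52 and 54.4% at day 56.

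Depth was similar in the 4 libraries. They had 2188 to 2741 single-base sites with at least 20 reads, 139148 to 173722 reads over those sites and a median of 36 to 38 reads per site. At the compared sites there were 127246 reads in MidK1 and 142891 in LowK at day 52, and 129184 in MidK1 and 136083 in LowK at day 56. The tables cover the X chromosome alone, so the cells could be checked only by X-linked markers. Of the pluripotency and germline list 3 genes were measured in MEF1 as well, at 84.7% to 327% of MEF1 coverage in MidK1 and 177% to 246% in LowK at day 52, and at 102% to 297% in MidK1 and 65.9% to 233% in LowK at day 56. Bgn, a proteoglycan gene of fibroblasts, was at 1.19% of MEF1 coverage at day 52 and 2.51% at day 56 in MidK1, and had no listed site with 20 reads in LowK on either day, which can also mean sites with too few variant reads to be listed. Xist, the RNA that silences the X, had no such listed site in MidK1 at day 52 and 75 reads in LowK with a share of 65.3%, and at day 56 it had 57 reads in MidK1 with 89.5% and 44 reads in LowK with 88.6%.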

How the data were processed

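Poly(A) RNA libraries were made with a directional kit, per the labels' protocols, and read as pairs of 76 bases. The series description names the CLC workbench and its Basic Variant Call tool as what the authors used for calling, and the submitters' processing notes name build mm10. How reads were aligned and filtered is not stated in those sources. The 2 columns used are unnormalised read counts per the file headers, 1 for the variant allele and 1 for coverage. A variant percent and an average base quality, a score, stand beside them per the file headers. In the 7 tables used (MEF1, LowK and MidK1) the lowest variant count was 5, the lowest variant percent 10 and the lowest coverage 10, so a position with only reference reads is not listed.

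Sites were single-base variants with at least 20 reads in both libraries, and reads were summed per gene as named in the tables. Where a position had several gene names, GENCODE M21 decided if just 1 of them had an exon there. Two-sided Fisher's exact tests compared the summed reads of 2 libraries, with Benjamini-Hochberg adjustment over all genes of a pair. Zelen's exact test asked whether the odds ratio of MidK1 to LowK was equal on both days, at sites listed in all 4 libraries. Intervals are 95% Wilson intervals for shares and Newcombe intervals for differences. Reads carry no molecular identifiers, and intervals and tests cover counting error only. Coverage ratios used a pseudocount of 0.5 reads for variant reads. The scripts ran in Python 3.11.15 with SciPy 1.17.1, pandas 2.3.3 and NumPy 2.4.6, and the tests were tested on simulated data.

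Named genes were those called on both days or on 1 day, caught up, level with at least 100 reads in each library, changed between the days (10 by rule, and the last 2 of the 12 for completeness), lower in MidK1, called members of a list, and the 8 uncalled genes with the most coverage. Neighbours and narrowing genes beyond these were named after their values were seen. The genes and lists were chosen with earlier results of these data known. The MEF2 and MidK2 libraries were not used. Alternatives covered the coverage minimum, base quality, the number, spacing and choice of sites, the size limit and overlapping genes.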

Additional observations from a re-analysis of the deposited data

Results flagged for a closer look

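At 12 of 222 genes (5.41%) with sites listed in all 4 libraries, the MidK1 to LowK odds ratio differed between day 56 and day 52 at an adjusted p under 0.05 in Zelen's exact test with Benjamini-Hochberg adjustment, and 30 did so at an unadjusted p under 0.05. The following changes are the MidK1 minus LowK difference at day 56 minus that at day 52, in percentage points. Timp1 changed by -33.37 (adjusted p = 0.0018 in Zelen's exact test), Dynlt3 by -14.44 (1.11e-05) and Praf2 by -12.05 (0.0491). At these 3 genes the LowK share was higher at day 56 than at day 52. Igbp1 changed by -5.44, with 4.46% in MidK1 and 6.40% in LowK at day 56 and 5.84% in MidK1 and 2.34% in LowK at day 52. Psmd10, a proteasome assembly gene, changed by -4.88, with 6.06% in MidK1 and 5.01% in LowK at day 56 and 6.64% in MidK1 and 0.708% in LowK at day 52. Kif4 changed by -1.91, Tfe3 by -0.67 and Uba1 by -0.62. In Tfe3 and Uba1 the difference in points was nearly the same on both days; the test compares odds ratios, not points. More positive at day 56 were Nono by 8.39, Hnrnph2 by 7.72, Gnl3l by 6.65 and Eif1ax by 5.69. The difference changed sign in Gnl3l, with -3.75 points at day 52 and 2.91 at day 56, and in Hnrnph2, with -0.96 and 6.76. Of the 6 Hnrnph2 sites at day 56, 2 were at least 20 points higher in MidK1 and 2 were lower. Nono, a paraspeckle protein gene, had 25.5% in MidK1 and 15.99% in LowK at day 56 and 18.8% in MidK1 and 17.7% in LowK at day 52. With 1 site per gene, or with sites at least 300 bases apart, 0 genes passed.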

How the results depend on the processing

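Most counts held within 1.5 times under the alternatives run. The exceptions follow. With at least 50 reads per site, 8 of 117 genes were called at day 52, 12 of 123 at day 56 and 7 on both days, all 7 among the 18, and 0 genes had caught up and 6 had a changed difference. Timp1 could not be compared at day 52 with that minimum. A size limit of 10 points gave 33 genes at day 52, 40 at day 56 and 3 caught up (Timp1, Hdac6 and Ddx3x), and a limit of 30 points gave 12 at day 56 and 9 on both days. The single best-covered site per gene gave 0 caught up and 0 changed differences, and so did sites at least 300 bases apart, an alternative chosen after seeing the data. No called gene reversed. Genes that were not called could change sign, as Las1l did at day 52 with the median over sites in place of the sum. Its summed difference was 9.32 points and its median site difference was -1.52 points. Of the 18 genes, 12 kept both calls under every alternative, other than the size limits, that could be computed for them. Zdhhc9 (both days), Gripap1, Utp14a and Rbmx2 (day 52) and Bcorl1 (day 56) lost a call at the single best-covered site, Rbmx2 at day 52 also with spaced sites, and Gm21887 lost calls under 4 alternatives. No paired analysis was possible because each group is 1 library and the groups share only 1 replicate number; the days pair the courses by design, but 2 pairs were not tested as replicates. Shares rest on a median of 36 to 38 reads per site, so single sites and genes with 1 site are imprecise.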
